A study of Mus musculus with 2 samples.

Results

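The red cell membrane and its spectrin skeleton are represented here by 8 genes: Slc4a1, Epb42, Rhag, Rhd, Ermap, Epb41, Sptb and Ank1. They were found by gene name among the 24171 genes and 44170 sequences of the array, and together they had 21 sequences, between 1 and 5 for each gene. Slc4a1, Epb42, Rhag, Rhd and Ermap were taken as erythroid-restricted (10 sequences) and Epb41, Sptb and Ank1 as more widely used (11 sequences), from general knowledge of these genes. The files list Epb42, Epb41 and Sptb under the older names Epb4.2, Epb4.1 and Spnb1.

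The arrays compared a WASH knockout with a wild type control, both made from LT-HSC, the long-term haematopoietic stem cells that can rebuild the blood. The cells were purified by flow cytometry from femoral marrow of C57/BL6 mice. Each genotype had 1 array hybridised with Cy3-labelled total RNA. The labels describe the tested mice only as knock out, and the allele, any Cre driver, the age and the number of animals pooled are not given in the sources used here. With 1 array per genotype no standard error or p-value exists, so every value below is a single reading and each difference compares these 2 arrays.

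The red cell membrane is anchored to a network of spectrin tetramers joined by short actin filaments. Ankyrin, the product of Ank1, ties beta-spectrin (Sptb) to the anion exchanger band 3 (Slc4a1), and the product of Epb42 stabilises that contact. The product of Epb41 ties spectrin and actin to the membrane at the junctions of the network. Rhag and Rhd encode the Rh-associated glycoprotein and the Rh protein, which sit beside band 3, and Ermap encodes an erythroid membrane protein of the immunoglobulin superfamily. These proteins accumulate as erythroblasts mature, while Epb41, Sptb and Ank1 also have forms in muscle, brain or other cells.

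As a group the genes were higher on the knockout array. Of the 21 sequences, 19 were higher in the knockout, where 50.7% of all 44170 sequences were. A log2 difference of at least 1, that is 2-fold, was reached upward by 11 of 21 sequences, beside 5.98% of all sequences. None was 2-fold lower, beside 6.77% of all sequences. These counts take every reading as it stands, also over all sequences. The 11 include Epb41 sequence 3, whose control value was below the level of random-sequence probes and whose bound was only 1.19-fold. The 19 include Epb42 sequence 3, at or below that level on both arrays. The median difference of the 21 sequences was 1.24 on the log2 scale, against 0.01 for all sequences. With each gene represented by its brightest sequence (the highest mean log2 value over both arrays), 4 of 8 genes were at least 2-fold higher, beside 6.41% of the 16245 genes in the detected range. None of the 8 was 2-fold lower, beside 7.29% of those genes. The detected range held genes whose higher value lay above the median of its array (137 on each), and the brightest sequences of all 8 genes lay above that median on both arrays. Only Sptb was lower with its brightest sequence, and its other sequence was the most raised of the set.

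**Figure D1:**
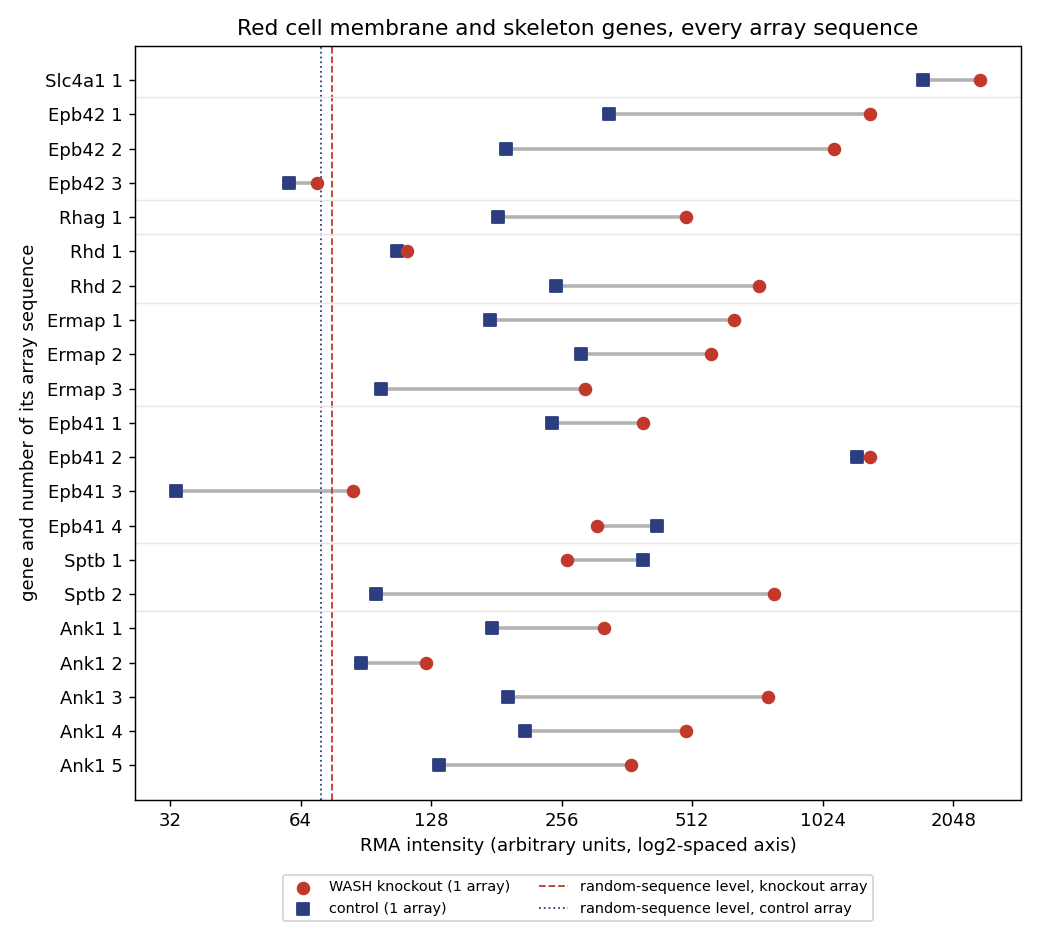
RMA intensity (log2-spaced axis) of every array sequence of the 8 genes on the WASH knockout array (red circles) and the control array (blue squares), 1 array each, with grey bars joining the values of 1 sequence. The dashed and dotted lines mark the random-sequence levels of 75.7 on the knockout array and 71.3 on the control array. The red point lies to the right of the blue one in 19 of 21 sequences, and Epb41 sequence 4 and Sptb sequence 1 are the exceptions.

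Some facts of the arrays bear on all values. Random-sequence probes, 5000 on each array, gave a level of 75.7 on the knockout array and 71.3 on the control array, used here as background. Across sequences, which do not replicate each other, Pearson's r between both arrays was 0.922 on the log2 scale. Separate sequences of 1 gene differed with an SD of 0.66 (log2) around their gene's mean difference. Washc1, which encodes the WASH protein, had intensities of 107 in the knockout and 119 in the control from 1 sequence. Both values are near background, and the deleted stretch is not described, so Washc1 is no check of the labels. Among the stem cell markers, Procr, Tek and Fgd5 were at or below the random-sequence level on both arrays. In such bulk RNA, fewer cells of a type and less RNA per cell cannot be told apart.

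Slc4a1, the anion exchanger band 3 and the main integral protein of the red cell membrane, had a single sequence (gene 20533, chromosome 11, 102210138 to 102226435, build MM9 as for all array coordinates here). Its intensity was 2362 in the knockout and 1746 in the control, a log2 difference of 0.44 or 1.35-fold. This was a high signal on both arrays, at the 97.7th and 96.5th percentile of sequences on the knockout and control arrays, and its difference was the smallest among the brightest sequences of the erythroid-restricted genes. Of all sequences, 10662 had a larger difference.

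Epb42 (gene 13828, chromosome 2) had 3 sequences. The first (120843952 to 120852996) was at 1317 in the knockout and 329 in the control, which is 4.0-fold higher. The second (120843954 to 120862491) was at 1086 in the knockout and 191 in the control, 5.70-fold higher. Both readings were well above background on both arrays, and only 52 of all sequences had a larger difference than the second. The third sequence (120849396 to 120862491), from an inner ear cDNA, was at 69.8 in the knockout and 60.1 in the control, at or below the random-sequence level on both arrays, so it gives no fold.

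The Rh complex is a band 3 neighbour that carries the Rh antigens in human red cells. Rhag (gene 19743, chromosome 17, 40948100 to 40977247) was at 494 in the knockout and 182 in the control with its single sequence, 2.71-fold higher. Rhd (gene 19746, chromosome 4) had 2 sequences that differed in their reading. The sequence covering 134435724 to 134452087 was at 728 in the knockout and 248 in the control, 2.93-fold higher. The sequence covering 134420419 to 134451920 was at 113 in the knockout and 107 in the control, a difference of 0.08, and its signal was 1.49 times background on each array.

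Ermap (gene 27028, chromosome 4) had 3 sequences of nearly the same span, from 118848061 to 118862579 in all. They were at 640.1, 565 and 289 in the knockout, against 175, 284 and 98.0 in the control. The log2 differences were 1.87, 0.99 and 1.56, so every sequence was higher in the knockout. The brightest one, at 0.99, fell just short of 2-fold, and the counts of genes above therefore leave Ermap out although its other sequences were 3.65-fold and 2.95-fold higher. The control value behind the 2.95-fold was 1.37 times background.

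RefSeq promoter windows (build GRCm38.p6, 250 bases before to 50 after an annotated transcript start) were found for 6 of the 8 genes, 8 windows in all. They are shown for the 4 erythroid-restricted genes that have one and for Sptb, whose reticulocyte sequence had the largest difference of the set. Sptb was thus chosen through its value, and the windows of Epb41 are not shown. Slc4a1 and Ank1 had no window to show. Both strands were searched for the GATA letters AGATAA with its variant AGATAG, and for the same letters beginning with T, which are TGATAA with its variant TGATAG, all of which GATA factors such as the erythroid Gata1 are known to bind, and for CACCC, the core of the sites of Klf1. Each window below runs 5′ to 3′ along the gene, and capitals mark a GATA match on either strand.
Epb42, chr2:121036828-121037127, minus strand: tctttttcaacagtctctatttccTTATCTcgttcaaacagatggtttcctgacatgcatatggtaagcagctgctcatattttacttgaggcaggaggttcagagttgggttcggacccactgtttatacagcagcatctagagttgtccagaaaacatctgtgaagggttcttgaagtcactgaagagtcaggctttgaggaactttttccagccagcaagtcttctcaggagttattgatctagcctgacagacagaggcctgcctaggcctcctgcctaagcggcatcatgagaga
Rhag, chr17:40810899-40811198, plus strand: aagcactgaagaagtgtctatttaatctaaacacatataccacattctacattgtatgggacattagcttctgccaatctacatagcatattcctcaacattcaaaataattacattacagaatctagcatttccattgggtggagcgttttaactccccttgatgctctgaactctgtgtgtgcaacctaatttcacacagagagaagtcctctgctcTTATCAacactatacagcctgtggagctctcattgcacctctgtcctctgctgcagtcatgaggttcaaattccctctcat
Rhd, chr4:134864286-134864585, plus strand: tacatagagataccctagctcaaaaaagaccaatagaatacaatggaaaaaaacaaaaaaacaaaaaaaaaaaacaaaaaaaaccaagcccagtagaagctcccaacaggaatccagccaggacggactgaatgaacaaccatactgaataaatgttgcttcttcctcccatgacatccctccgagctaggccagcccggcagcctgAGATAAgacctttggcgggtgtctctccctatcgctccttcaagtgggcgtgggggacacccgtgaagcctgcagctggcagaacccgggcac
Ermap, chr4:119189946-119190245, minus strand: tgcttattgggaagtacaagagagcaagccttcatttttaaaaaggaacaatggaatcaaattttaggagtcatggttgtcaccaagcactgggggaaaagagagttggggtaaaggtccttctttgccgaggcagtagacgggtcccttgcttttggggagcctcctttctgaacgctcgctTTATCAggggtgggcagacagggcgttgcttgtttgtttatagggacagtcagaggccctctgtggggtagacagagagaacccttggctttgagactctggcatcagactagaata
Sptb, chr12:76710498-76710797, minus strand: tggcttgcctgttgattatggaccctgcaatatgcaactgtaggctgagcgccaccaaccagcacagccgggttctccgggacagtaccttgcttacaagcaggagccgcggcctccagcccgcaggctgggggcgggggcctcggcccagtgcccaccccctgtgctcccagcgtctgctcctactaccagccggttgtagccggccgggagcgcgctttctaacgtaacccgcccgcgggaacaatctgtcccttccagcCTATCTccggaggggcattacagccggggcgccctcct

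A GATA match was present in 7 of the 8 windows and in at least 1 window of each of the 6 genes, while 29.8% of all 32851 windows and 33% of all 27025 genes held one. With the transcript start counted as 0, the matches of Rhag, Rhd and Ermap began at -31, -43 and -67, that of Epb42 at -226 and that of Sptb at 12. In the Epb41 windows, not shown above, matches began at -184 in window 1 and at 0 in window 2, and window 3 held none. CACCC was present in 4 of the 8 windows, against 57.5% of all windows, and in 4 of the 6 genes, against 59.8% of all genes. These shares are near those over all windows and genes. The windows of Rhag, Rhd, Ermap and Sptb held both sets, and the share of all windows that hold both was not counted. In Ermap the GATA match ended at -62 and the CACCC match began at -60. In Rhd CACCC matches began at -27 and at 14. The CACCC matches of Rhag and Sptb began at -112 and -95. The GATA and CACCC matches did not overlap. These matches describe letters in the windows and say nothing of binding in these cells.

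Ank1 (gene 11733, chromosome 8) was the most evenly higher of the widely used genes, with all 5 sequences higher in the knockout. The sequence covering 24145593 to 24260968 was at 764 in the knockout and 193 in the control, 3.96-fold higher. Both sequences of the far end of the gene (24249501 to 24260968, 11.5 kb), the region that also holds the short muscle form of ankyrin, were higher. They were at 496 and 370.2 in the knockout, against 210.3 and 134 in the control, which is 2.36-fold and 2.77-fold. The sequences with the widest spans were less raised, at 320 in the knockout and 177 in the control (0.85 on the log2 scale) for one and at 125 in the knockout and 88.1 in the control (0.50) for the other. That last control value was 1.24 times background.

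Sptb, the beta chain of erythroid spectrin (gene 20741, chromosome 12), gave opposite readings with its 2 sequences. The sequence covering 77697116 to 77811534, described in the files as a beta-spectrin mRNA of mouse reticulocytes, was at 791 in the knockout and 95.7 in the control, 8.27-fold higher. Only 9 of all 44170 sequences had a larger difference. Its control value was 1.34 times the random-sequence level, so the size of this fold rests on a reading near background. The sequence covering 77684211 to 77750911, a full-coding cDNA clone, was at 264 in the knockout and 394 in the control, a difference of -0.58. It reaches 12.9 kb further toward lower coordinates than the reticulocyte sequence, and the 2 spans share the stretch between. The differences of the 2 sequences lay 3.63 apart on the log2 scale. In the control the reticulocyte sequence was below the array median and the clone above it, and in the knockout both were above it.

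**Figure D2:**
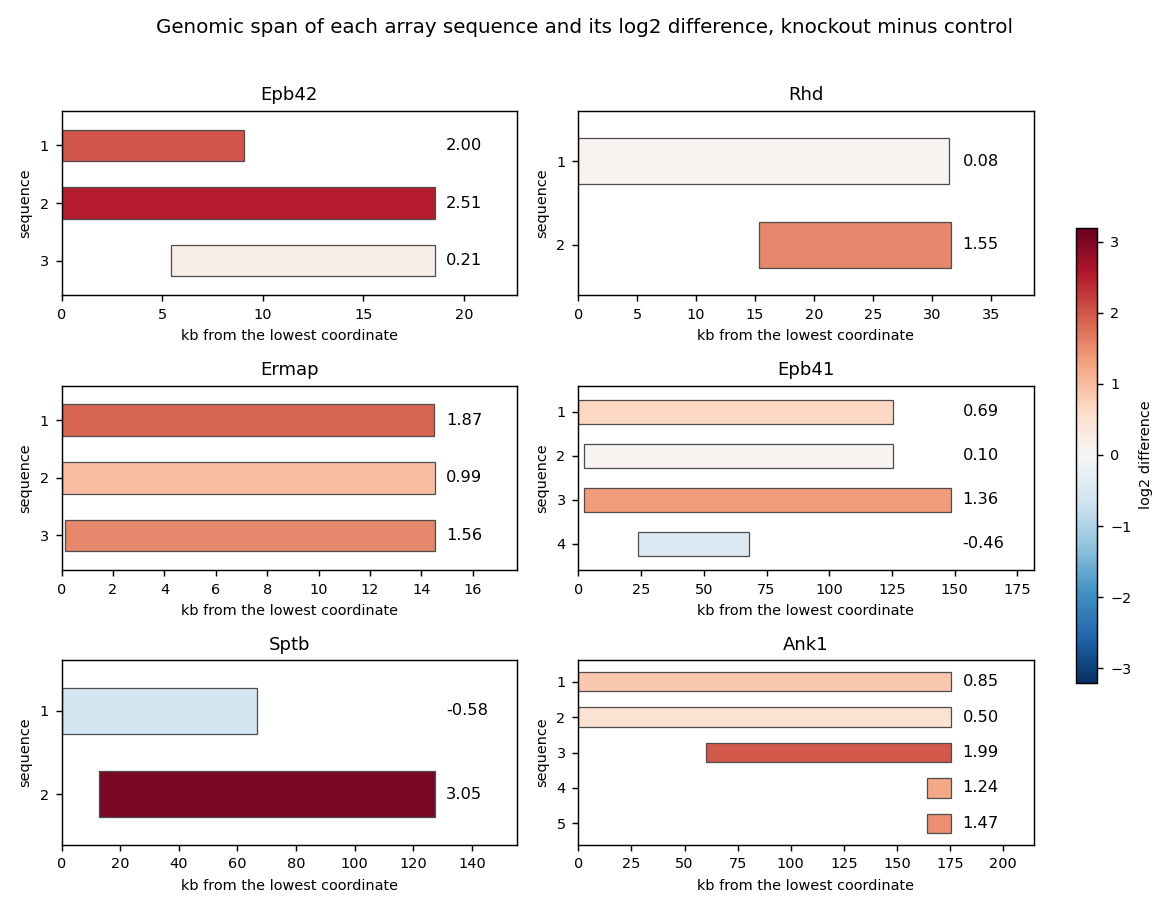
Genomic span of each array sequence of the 6 genes that had several, as distance in kb from the lowest coordinate of the gene's sequences, coloured by the log2 difference, knockout minus control, which is also printed at the right. The 2 Sptb spans overlap yet read 3.05 and -0.58, while all 5 Ank1 spans and all 3 Ermap spans are red.

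Epb41 (gene 269587, chromosome 4) had the smallest difference of the 8 genes with its brightest sequence. That sequence (131481687 to 131604900) was at 1317 in the knockout and 1231 in the control, 1.07-fold higher. A second sequence (131479340 to 131604822) was at 394 in the knockout and 244 in the control, 1.62-fold higher, and a brain cDNA of the middle of the locus (131503011 to 131547201, sequence 4) was at 308 in the knockout and 424 in the control, a difference of -0.46. The longest span (131481687 to 131628012, sequence 3) was at 84.5 in the knockout and below the random-sequence level in the control, so it was at least 1.19-fold higher. All of these spans except that of the brain cDNA overlap those of Tmem200b and Gm13063, which were looked up after the values were seen and differed by 0.22 and 0.10. Probe positions and strand were not used here, so overlapping genes may share signal.

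The contrast between erythroid-restricted and widely used genes depended on which sequence stood for a gene. With the brightest sequence the medians were 1.44 for the 5 erythroid-restricted genes and 0.10 for the 3 widely used ones, a gap of 1.34. The widely used median is the value of Epb41 alone, between -0.58 for Sptb and 1.99 for Ank1. The gap was 0.23 with the mean of each gene's sequences, and it turned to -0.43 with the sequence that had the highest value on either array, which is the reticulocyte sequence in the case of Sptb. Over sequences, 6 of 10 were at least 2-fold higher in the erythroid-restricted genes and 5 of 11 in the widely used ones, beside the same 5.98% of all sequences, with medians of 1.5 and 0.85. The 5 include Epb41 sequence 3, whose bound was only 1.19-fold. No difference between the classes was tested, since the genes share 1 pair of arrays.

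**Figure D3:**
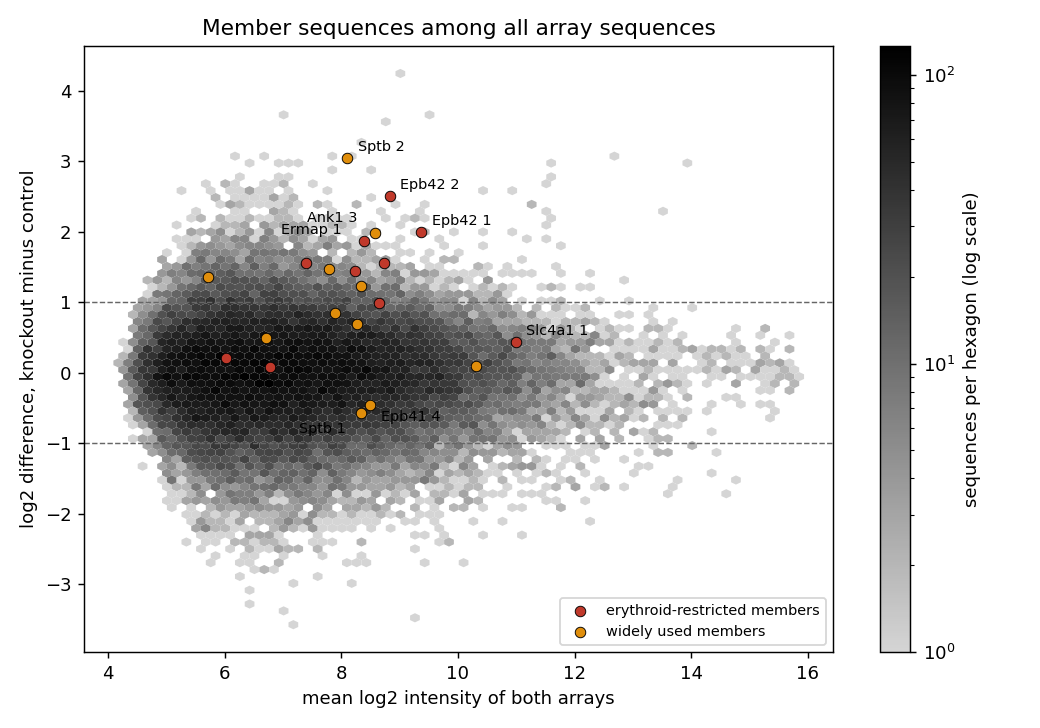
Log2 difference, knockout minus control, against the mean log2 intensity of both arrays for all 44170 sequences (grey hexagons, darker for more sequences) with the sequences of the erythroid-restricted genes in red and of the widely used genes in orange. Dashed lines mark 2-fold. Sptb sequence 2 (3.05) and Epb42 sequence 2 (2.51) lie near the upper edge of the cloud, while Sptb sequence 1 (-0.58) and Epb41 sequence 4 (-0.46) lie just below 0.

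Other proteins of the red cell membrane were higher in part. With their brightest sequence, 15 of 20 such genes measured were higher in the knockout. At least 2-fold higher were 8 of the 20, beside 5.94% of all 24171 genes. A 2-fold lower value of the brightest sequence was seen in 0 of the 20, beside 6.42% of all genes. Some other sequences read differently. Cd47 had 2 of 3 sequences lower, with a range of -1.88 to 0.06. Icam4 ranged from -0.95 to 0.73 and Slc43a1 from -0.70 to 2.22. The list median was 0.43 and that of all genes 0.02. With an offset of 100 intensity units added before the log, 4 of the 20 were at least 2-fold higher. The water channel gene Aqp1 was at 1038 in the knockout and 317 in the control (3.27-fold), and the urea transporter gene Slc14a1 was 3.01-fold higher, although its other sequence differed by -0.03. Bcam (2.29-fold), Cd59a, which protects cells from complement (2.17-fold), and the Kell pair Kel and Xk (2.05-fold and 2.03-fold) were also higher. The control values of Cd59a and Xk were 1.57 and 1.55 times background. Abcb6 was below the random-sequence level in the control and at least 2.87-fold higher in the knockout. Near the middle of the list, the potassium channel gene Kcnn4 was at 2890.2 in the knockout and 2144 in the control (0.43), Tspo2 differed by 0.42 and the glycophorin C gene Gypc by 0.19. Stom, which encodes stomatin, was at or below the random-sequence level on both arrays.

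The partners of spectrin at its actin junctions had a median difference near 0 with values on both sides. Of 8 measured, 6 were higher and 2 lower with their brightest sequence, with a median of 0.07, and 1 was at least 2-fold higher, beside 5.94% of all genes. That gene was Add2, the beta-adducin of red cells and brain, at 456 in the knockout and 218 in the control (1.07 on the log2 scale), although its 5 sequences ranged from -0.59 to 1.07. The brightest sequences of Add1, Add3, Tpm1 and Tpm3, which encode more widely used adducins and tropomyosins, differed by -0.17, 0.07, 0.04 and 0.06. Over all sequences the ranges were -1.06 to 0.61 for Add1, -1.15 to 0.07 for Add3, -0.50 to 0.88 for Tpm1 and -1.22 to 0.06 for Tpm3. Lower in the knockout were 2 of 3 sequences of Add1, 4 of 5 of Add3, 2 of 4 of Tpm1 and 5 of 6 of Tpm3. Outside the rule for named genes, and chosen after their values were seen, stand Dmtn and Mpp1. Dmtn, which encodes the actin-bundling protein dematin, was higher with all 3 of its sequences, by 0.69 for the brightest and up to 3.07. Mpp1, which encodes a palmitoylated scaffold protein of the junction, was at 194 in the knockout and 373 in the control (-0.95), and its sequences ranged from -0.95 to 1.01. The median of this list turned to -0.06 with averaged sequences and to -0.54 with the dimmest sequence of each gene.

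Paralogs that serve other cells were divided in direction. Of 21 measured, 9 were higher and 12 lower, with a median of -0.17 (0.05 with the dimmest sequence of each gene) and with 1 gene at least 2-fold in each direction, near the 5.94% higher and 6.42% lower of all genes. The alpha-spectrin gene Sptan1 was at 499 in the knockout and 592 in the control (-0.25), and the ankyrin gene Ank3 at 313 in the knockout and 331.5 in the control (-0.08). Slc4a2, a widely used anion exchanger, differed by -0.17 and the transglutaminase gene Tgm2, a relative of Epb42, by -0.24. Epb41l4a was below the random-sequence level in the control and at least 2.03-fold higher in the knockout. Btn1a1, a butyrophilin gene related to Ermap, was at 169 in the knockout and 408 in the control (-1.27), while its other sequences differed by at most 0.03.

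**Figure D4:**
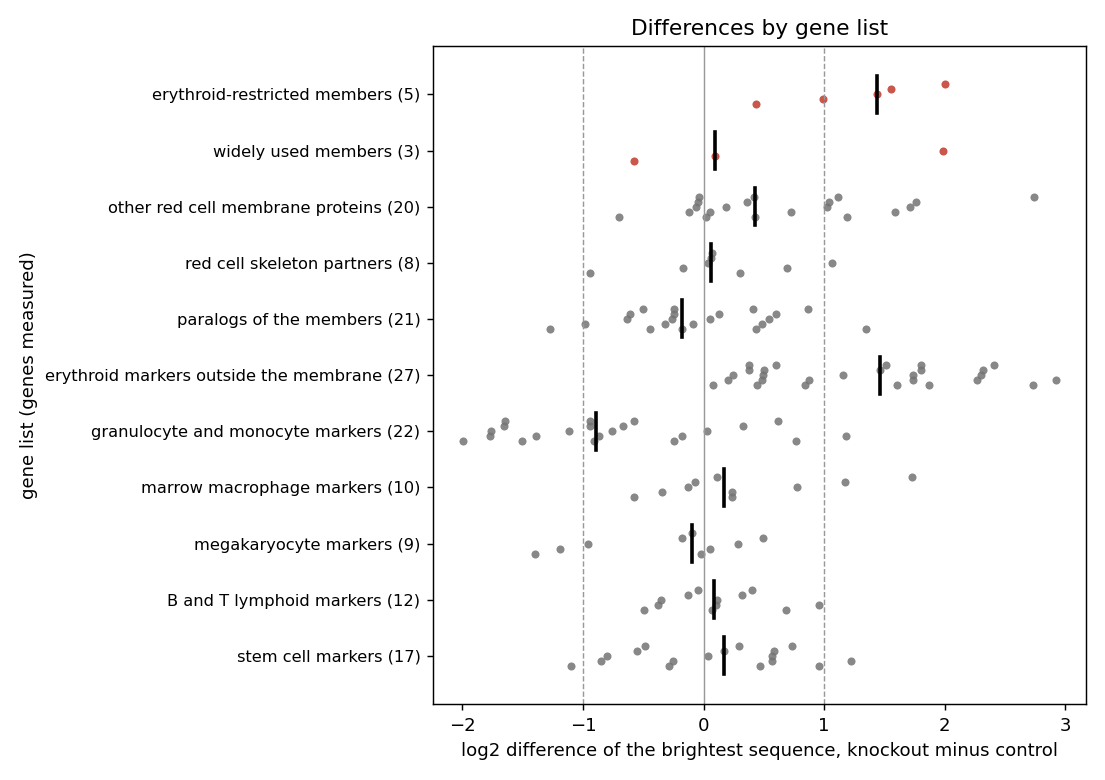
Log2 difference of the brightest sequence of each gene, knockout minus control, by gene list, with 1 point per gene, a black bar at the list median and dashed lines at 2-fold. The medians were 1.44 for the erythroid-restricted genes, 0.10 for the widely used genes and 0.43 for other red cell membrane proteins. For the erythroid markers outside the membrane the median was 1.46, or 0.88 without the globin genes. The skeleton partners (0.07) and paralogs (-0.17) lie on both sides of 0, and the granulocyte and monocyte markers lie lower (-0.89).

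Erythroid markers read higher along with these genes, and granulocyte and monocyte markers read lower. With their brightest sequence, all 27 erythroid markers outside the membrane were higher in the knockout, beside 51.6% of all genes, and 15 were at least 2-fold higher, beside 5.94%. They had a median of 1.46 and a summed intensity of 105683 in the knockout and 22231 in the control. Another sequence of Fech (-1.64) and another of Gfi1b (-0.42) were lower. The beta-globin gene Hbb-b1 was at 43218 in the knockout and 5699 in the control, Hba-a2 at 26801 and Hbb-b2 at 6757 in the knockout, against 5551 and 1935 in the control. Globin genes have near-identical copies, so single globin values are uncertain. Without the 4 globin genes, 11 of the other 23 erythroid markers were at least 2-fold higher, with a median of 0.88 and a summed intensity of 23459 in the knockout and 8023 in the control. Leaving out the globin genes was chosen after seeing the data. Of 22 granulocyte and monocyte markers, 17 read lower in the knockout. A 2-fold size was reached downward by 8 and upward by 1, beside 6.42% lower and 5.94% higher over all genes, with a median of -0.89 and a summed intensity of 61629 in the knockout and 153190 in the control. Their brightest genes S100a8, S100a9 and Ngp differed by -1.50, -1.39 and -1.65. None of the 27 erythroid or 22 granulocyte and monocyte markers was at or below the random-sequence level on both arrays. The part of erythroid or granulocyte RNA in the values of the membrane genes was not tested.

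Markers of other cells moved less. The medians were 0.17 for 10 marrow macrophage markers, with Adgre1 at 0.11, Hmox1 at -0.13 and Cd68 at 0.23, and -0.10 for 9 megakaryocyte markers, with Itga2b at 0.49, Vwf at -0.02 and Pf4 at -1.19. They were 0.09 for 12 B and T lymphoid markers, with Vpreb1 at 0.40, Lck at 0.07 and Ms4a1 at 0.96, and 0.17 for 17 stem cell markers, with Hoxa9 at -0.80, Robo4 at 0.59 and Cd34 at 0.57. A 2-fold size was reached upward by 2 macrophage and 1 stem cell marker, and downward by 2 megakaryocyte and 1 stem cell marker, beside the same 5.94% and 6.42% of all genes. At or below the random-sequence level on both arrays were 2 of the lymphoid and 3 of the stem cell markers.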

How the data were processed

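For each of 2 arrays (1 WASH knockout, 1 control) the authors deposited linear intensity values, 1 for each sequence. The submitters' processing notes name RMA, which subtracts background, brings arrays to a common distribution and combines the probes of a sequence. Its version and settings are not given in the sources. Per the file headers, coordinates are on mouse build MM9. Of the sequences, 44155 of 44170 sequences had 3 probes. RMA pulls array distributions together, so a shift of most genes would not show.

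Values were turned into log2 without further scaling, and differences are knockout minus control. Symbols were updated by gene identifier through RefSeq (21583 identifiers matched). A gene was represented by its brightest sequence. Counts use a fixed size of 2-fold in place of a test, applied to the readings as they stand. A value at or below the random-sequence level of its array gives a bound ("at least") or, if both are, no fold. Named beyond the 8 members were list genes at 2-fold, up to 4 nearest the list median, and the 3 brightest of each marker list; 1 gene under this rule is not reported here. The members and lists were chosen with earlier results of these data known. The array number and closeness to background limit precision. Steps were tested on simulated data in which all sequences of a gene shared the same planted effect. That test does not cover genes whose sequences disagree. Alternatives covered the authors' series table, scaling, offset, size, and choice of sequence or class. Python 3.11.15 and statsmodels 0.14.6 were used.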

Additional observations from a re-analysis of the deposited data

How the results depend on the processing

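No paired analysis was possible because there is only 1 array of either genotype. The median of the 8 genes stayed between 0.93 and 1.71 in 11 alternatives, and no gene of the set was 2-fold lower in any of 12. The count of 4 genes at least 2-fold higher ranged from 4 to 6, except that 2 reached 3-fold. The gap of 1.34 between erythroid-restricted and widely used genes stayed between 0.98 and 1.34 under the scaling, offset, series table and class alternatives. Of these, counting Ank1 and Sptb as erythroid-restricted could not move the gap. It added 1 gene above and 1 below the erythroid-restricted median and left only Epb41, whose value already was the other median. With all sequences of a gene averaged the gap was 0.23, also with only those above the random-sequence level on both arrays. With the median over a gene's sequences it was 0.20, with the sequence highest on either array -0.43 and with the dimmest one -0.92. Among these, the average above the random-sequence level, the median and the sequence highest on either array were chosen after seeing the data. Sptb changed sign in 5 of 10 alternatives, all of which use its other sequence, alone or averaged, and ranged from -0.60 to 3.05. Over all genes the counts of 1042 higher and 1185 lower were 336 and 478 with an offset of 100 intensity units, 677 and 803 with averaged sequences, 3004 and 2972 at 1.5-fold and 242 and 280 at 3-fold. Sequences near the random-sequence level (Epb42 sequence 3, Rhd sequence 1, Epb41 sequence 3, and in the control Sptb sequence 2, Ermap sequence 3 and Ank1 sequence 2) limit what their folds can show.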

Other observations

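The genes next to the 8 loci gave no common direction. Within 20 kb of the spans of 7 of the 8 genes lay 26 other sequences of 16 genes, 1 of the sequences without a symbol, with a median difference of -0.07 (log2, knockout minus control). At least 2-fold higher was 1 of them, beside 5.98% of all sequences: a sequence of Plekhg3 near Sptb (1.19), whose other 3 sequences ranged from -0.71 to 0.53. At least 2-fold lower were 2, beside 6.77% of all sequences: Zfp691 next to Ermap (74.6 in the knockout, at or below the random-sequence level, and 208 in the control) and Tmem50a next to Rhd (89.7 in the knockout and 216 in the control, -1.27). These neighbours were looked at after the values of the 8 genes were seen.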
